A study of Homo sapiens with 4 samples.

Results

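The subject is 9 genes, PPARGC1A, HS3ST1, RIMS1, KCNQ5, ATRNL1, TNC, PAPPA, MYO16 and VSNL1, whose surroundings were copied earlier in S phase in DKO1 cells than in HCT116 cells. They were chosen by that measured advance, so the advance itself is given here as a description with no test. Each gene was read over a window of the gene and 200 kb on each side, in bins of 80 kb of the hg19 build. The 9 windows hold 86 distinct bins out of 27704 in the whole table. HCT116 is a human colorectal cancer cell line, and DKO1 is the same line with the DNA methyltransferase genes DNMT1 and DNMT3B knocked out, per the study's design text. State codes of DNA cannot check the knockout. Each line is 1 library of S-phase cells, with 322 HCT116 and 207 DKO1 cells, sorted by DNA content into early, mid and late fractions that were pooled in equal parts. With a single library on each side, line, library and genotype cannot be told apart.

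DNA is copied in a set order. Gene-rich, active domains are usually copied early in S phase and gene-poor, silent domains late, with gradients between them where a fork travels from early into late DNA. Several of the 9 genes are best known from neurons, and others from the extracellular matrix or energy metabolism. DNMT1 keeps CpG methylation through replication and DNMT3B can add it anew, so a DKO1 cell lacks much of the methylation of its parent. No methylation or transcription values were used here.

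Every cell has 1 code per bin, read as replicated, unreplicated or not called (code 0). How far a cell had come through S phase, its progress, was measured as replicated bins in percent of called bins. The median progress was 52.7% for HCT116 cells and 48.8% for DKO1 cells. For each bin, the standardised share is the percent of cells that had copied it, averaged over 6 strata of progress from 20 to 80% with equal weight. A window's share is the mean over its bins. The lines shared 0 cell barcodes. Code 0 took 1.08% of all codes in HCT116 and 2.80% in DKO1. With 1 library per line no test between the lines was possible, cells are not replicates, and intervals cover the counting error of cells only. Those of a percent of cells are exact 95% binomial intervals. Those of a gap between shares are approximate, made from exact intervals of both lines without the weights of the strata.

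All 9 genes were found in the RefSeq promoter table (GRCh38.p14), with 13 promoters among them. The 250 bases before a start site are shown for the PPARGC1A and HS3ST1 promoters, because these genes had the largest advance over all cells, and for ATRNL1 and PAPPA, because they hold the most CpG sites and few CpG sites. Capitals mark each CpG, the site that DNMT1 and DNMT3B methylate, and sequences run 5′ to 3′ on the strand of the gene.
PPARGC1A upstream promoter (chr4:24472906-24473155, minus strand): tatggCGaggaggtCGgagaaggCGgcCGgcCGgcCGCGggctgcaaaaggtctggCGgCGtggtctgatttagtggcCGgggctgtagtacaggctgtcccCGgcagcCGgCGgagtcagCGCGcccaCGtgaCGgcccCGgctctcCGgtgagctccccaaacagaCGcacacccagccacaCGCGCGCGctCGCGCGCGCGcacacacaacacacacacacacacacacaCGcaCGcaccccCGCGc
PPARGC1A downstream promoter (chr4:23881102-23881351, minus strand): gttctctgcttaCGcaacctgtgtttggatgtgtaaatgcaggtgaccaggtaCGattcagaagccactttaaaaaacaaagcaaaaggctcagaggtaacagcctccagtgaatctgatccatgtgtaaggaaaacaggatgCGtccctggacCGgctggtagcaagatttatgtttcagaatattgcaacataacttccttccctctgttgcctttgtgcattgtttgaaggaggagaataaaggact
HS3ST1 promoter (chr4:11428895-11429144, minus strand): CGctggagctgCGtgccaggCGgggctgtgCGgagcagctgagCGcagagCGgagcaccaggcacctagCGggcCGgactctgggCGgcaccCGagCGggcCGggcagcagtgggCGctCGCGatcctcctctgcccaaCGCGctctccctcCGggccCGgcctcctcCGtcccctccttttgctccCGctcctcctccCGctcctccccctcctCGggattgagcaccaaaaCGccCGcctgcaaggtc
ATRNL1 promoter (chr10:115093115-115093364, plus strand): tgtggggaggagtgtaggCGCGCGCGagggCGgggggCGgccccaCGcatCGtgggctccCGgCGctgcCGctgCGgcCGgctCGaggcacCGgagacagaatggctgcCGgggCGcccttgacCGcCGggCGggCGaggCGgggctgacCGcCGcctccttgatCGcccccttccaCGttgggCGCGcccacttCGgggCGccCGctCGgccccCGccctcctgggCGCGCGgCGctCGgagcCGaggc
PAPPA promoter (chr9:116153541-116153790, plus strand): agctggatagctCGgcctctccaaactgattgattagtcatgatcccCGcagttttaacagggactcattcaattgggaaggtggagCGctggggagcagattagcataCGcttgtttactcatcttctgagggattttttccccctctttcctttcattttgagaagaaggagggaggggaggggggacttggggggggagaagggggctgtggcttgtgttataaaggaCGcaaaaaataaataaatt

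The 13 promoters did not share a CpG content. ATRNL1 has 39 CpG sites in 250 bases, more than 97.3% of the 35116 promoters in the table. The upstream PPARGC1A promoter has 33 and HS3ST1 has 25. PAPPA has 5, the downstream PPARGC1A promoter has 4, and the first of the RIMS1 promoters has 19 while the others have 3 each. KCNQ5 has 18, TNC 12 and MYO16 8. The VSNL1 promoters have 7 and 15. The median was 12 sites over the 13 promoters and 11 over all promoters, whose quartiles are 3 and 23. The window of PPARGC1A was built on the shorter form of the gene, and its upstream promoter was not placed in the hg19 bins.

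By the RefSeq gene order the 9 genes have few neighbours in common. RIMS1 and KCNQ5 are adjacent protein-coding genes, with OGFRL1 and KHDC1L on the outer sides. TNC and PAPPA are also adjacent, between TNFSF8 and ASTN2. PPARGC1A lies between ADGRA3 and DHX15, HS3ST1 between CLNK and RAB28, ATRNL1 between TRUB1 and GFRA1, MYO16 between TNFSF13B and IRS2, and VSNL1 between RAD51AP2 and SMC6. The windows of RIMS1 and KCNQ5 share 3 bins (chromosome 6 from 73120001 to 73360000), and 8 bins lie between the windows of TNC and PAPPA. The 9 windows are therefore not separate places.

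All 9 windows were replicated in a larger share of DKO1 cells. The standardised share rose from a median of 16.5% in HCT116 to 42.8% in DKO1 over the 9 windows, and the median difference was 26.6 percentage points, against 0.0085 points over all 27142 bins used. Cells were matched on progress over these same bins, which keeps the average difference over all of them small by design. The value for all bins is therefore not a separately measured background. All 9 windows were at least 15 points higher in DKO1. Of all sliding windows of 8 bins (640 kb), 5.44% were that much higher, as were 6.9% of single bins and 10.3% of the sliding windows with an HCT116 share under 25%. At 10 points 13.2% and at 20 points 2.45% of sliding windows passed. Since the genes were chosen for this difference, the count says nothing about them beyond the choice. The count became 8 of 9 when progress was taken without the gene's own chromosome, because KCNQ5 then differed by 13.98 points.

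**Figure D1:**
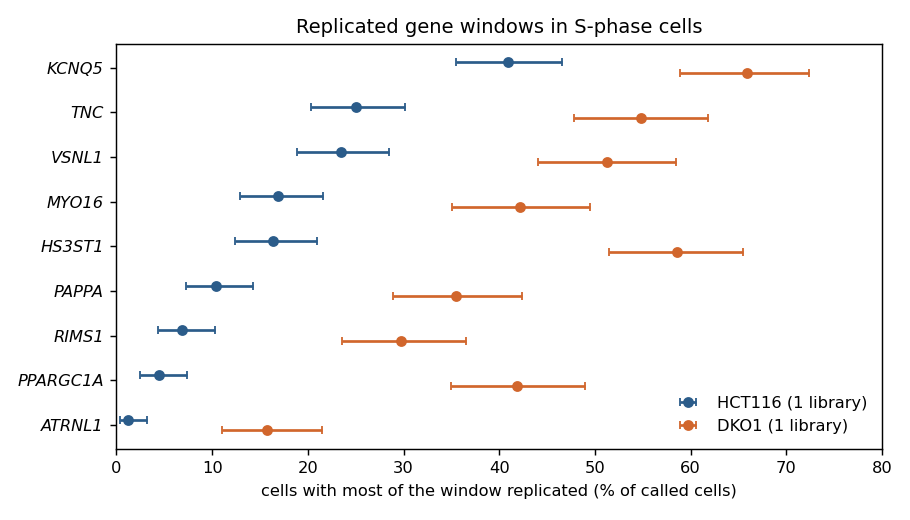
Percent of called S-phase cells in which more than 50% of the gene's window was replicated (horizontal axis) for the 9 genes, with HCT116 in blue and DKO1 in orange, 1 library each, and bars for exact 95% binomial intervals. The intervals of the lines, for the counting error of cells only, are apart for all 9 genes, from ATRNL1 with 1.25 and 15.8% to KCNQ5 with 40.9 and 65.9%. The genes were chosen for their advance in DKO1, and no share of all windows with intervals apart is given here.

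The name of the set, late-domain genes, held for 7 of the 9. PPARGC1A, ATRNL1, RIMS1, PAPPA, HS3ST1, MYO16 and VSNL1 had HCT116 shares under 25%. TNC, at 30.9%, and KCNQ5, at 47.9%, lay on the slope between an early and a late domain. In HCT116 the order from latest to earliest was PPARGC1A (5.82%), ATRNL1 (6.57%), RIMS1 (8.05%), PAPPA (15.9%), HS3ST1 (16.5%), MYO16 (20.6%), VSNL1 (22.2%), TNC and KCNQ5. PPARGC1A and ATRNL1 have no settled order: ATRNL1 was the later one by rank percentile (11.8 against 14.1) and by cells with most of the window copied. Between neighbours in this order the intervals for cells were apart only for ATRNL1 and RIMS1 and for TNC and KCNQ5. In DKO1 the order was ATRNL1 (28.4%), PAPPA (38.4%), RIMS1 (38.6%), PPARGC1A (41.8%), MYO16 (42.8%), VSNL1 (49.3%), TNC (57.5%), HS3ST1 (59.2%) and KCNQ5 (65.1%). Only the intervals of ATRNL1 and PAPPA were apart between neighbours there.

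Bins equally late in HCT116 were on average also higher in DKO1, by less than these windows. Bins with the same HCT116 share as the bins of a window differed between the lines by a mean of 0.367 points for KCNQ5 to 6.90 points for PPARGC1A. The windows lay 15.1 points (ATRNL1) to 37.2 points (HS3ST1) above these means. As ranks within each line, where 0 is the latest and 100 the earliest bin, the windows averaged 11.8 to 49.9 in HCT116 and 32.6 to 63.8 in DKO1.

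PPARGC1A, a coactivator that drives mitochondrial gene programs, went from a share near the bottom of the set to its middle. The PPARGC1A window (chromosome 4, 23520001 to 24160000) had a share of 5.82% for HCT116 and 41.8% for DKO1. The gap was 36.0 points (28.2 to 43.7). Most of it had been copied by 14 of 315 HCT116 cells (4.44%, interval 2.45 to 7.34%), compared with 85 of 203 from DKO1 (41.9%, interval 35.0 to 49.0%). HCT116 cells had seldom copied it at any progress covered: it was replicated in 6 of 82 cells at 60 to 70% progress and in 0 of 18 at 70 to 80% (exact upper limit 18.5%). In DKO1 it was replicated in 14 of 52 cells at 40 to 50%, 26 of 50 at 50 to 60% and 32 of 40 at 60 to 70%. Within the window the gap was widest on the gene. The bins that hold the gene differed by 43.7 points, and the outermost bins of the window by 31.1 and 29.0 points. Outside the window, in the same advanced run, a bin 0.92 Mb to the lower-numbered side had a higher share than the gene in both lines, 13.05% in HCT116 against 59.1% in DKO1.

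HS3ST1, a sulfotransferase that modifies heparan sulfate chains, had the largest difference of the 9 over all cells. In cells with code 0 in at most 1% of all bins VSNL1 (39.4 points) and PPARGC1A (38.2) were above HS3ST1 (36.6). The HS3ST1 window (chromosome 4, 11200001 to 11680000) had a share of 16.5% for HCT116 and 59.2% for DKO1. The gap was 42.6 points (34.3 to 51.0). In single cells, most of it had been copied by 51 of 312 HCT116 cells (16.3%, interval 12.4 to 20.9%), compared with 119 of 203 from DKO1 (58.6%, interval 51.5 to 65.5%). The DKO1 values were high from the first stratum on: 5 of 11 cells at 20 to 30%, 19 of 39 at 30 to 40%, 27 of 52 at 40 to 50%, 34 of 51 at 50 to 60%, 26 of 39 at 60 to 70% and 8 of 10 at 70 to 80%. In HCT116 they ran from 0 of 31 to 25 of 81 at 60 to 70% and 5 of 18 at 70 to 80%. At 30 to 40%, where 19 of 39 DKO1 cells had copied the window, 4 of 47 HCT116 cells had. The number of copies of this region in each line was not tested, since the G1 libraries were not used here, so a replicated call in early cells rests on the S-phase codes alone.

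RIMS1, a scaffold protein of the presynaptic active zone, was deep in a late domain in HCT116. The RIMS1 window (chromosome 6, 72400001 to 73360000) had a share of 8.05% for HCT116 and 38.6% for DKO1. The gap was 30.6 points (22.5 to 38.7). The highest of its bins in HCT116 was at 13.02%, and the lowest in DKO1 was at 31.4%. Most of it had been copied by 22 of 319 HCT116 cells (6.90%, interval 4.37 to 10.3%), compared with 61 of 205 from DKO1 (29.8%, interval 23.6 to 36.5%). The lines were close up to 40% progress, with 2 of 46 and 2 of 41 cells at 30 to 40%, and far apart at 60 to 70%, with 10 of 81 and 29 of 40 cells.

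KCNQ5, a voltage-gated potassium channel subunit next to RIMS1, spans a slope. The KCNQ5 window (chromosome 6, 73120001 to 74160000) had a share of 47.9% for HCT116 and 65.1% for DKO1. The gap was 17.2 points (8.26 to 26.1), the smallest of the 9. Within the window the gap shrank from the start of the gene to its end. The bin of the start site was at 13.02% in HCT116 but at 48.4% in DKO1, while the bin of the end was at 81.0 and 80.7%. In the last bin of the window HCT116 was the higher line, at 97.51 against 91.03%. The 4 bins with a lower share in DKO1 among all 86 are the end bin of KCNQ5 and the 3 beyond it. Most of the window had been copied by 131 of 320 HCT116 cells (40.9%, interval 35.5 to 46.5%), compared with 135 of 205 from DKO1 (65.9%, interval 58.9 to 72.3%). The lines were furthest apart at 40 to 50% progress, with 4 of 60 and 28 of 52 cells. The gap was 29.99 points under a 99% limit on calls per bin, in place of 90%. The shares were then 24.5% in HCT116 and 54.5% in DKO1, so this gap is for the bins left and not for the whole window.

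VSNL1, a neuronal calcium sensor, lies on a local rise within late DNA. The VSNL1 window (chromosome 2, 17520001 to 18080000) had a share of 22.2% for HCT116 and 49.3% for DKO1. The gap was 27.1 points (18.3 to 35.8). In single cells, most of it had been copied by 74 of 316 HCT116 cells (23.4%, interval 18.9 to 28.5%), compared with 100 of 195 from DKO1 (51.3%, interval 44.0 to 58.5%). The lines differed most at mid progress, with 6 of 58 and 25 of 48 cells at 40 to 50%, and came close at 70 to 80%, with 14 of 19 and 8 of 10 cells. Code 0 was more frequent here in DKO1, at 5.59% of codes against 1.95% in HCT116. In cells with code 0 in at most 1% of all bins the difference was 39.4 points.

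MYO16, an unconventional myosin found mostly in the brain, rose along the gene in both lines. The MYO16 window (chromosome 13, 109040001 to 110080000) had a share of 20.6% for HCT116 and 42.8% for DKO1. The gap was 22.3 points (13.7 to 30.8). The start of the gene was later than its end in both lines, with 8.21 and 26.3% in the bin of the start site and 31.6 and 54.5% in the bin of the end. Most of it had been copied by 52 of 308 HCT116 cells (16.9%, interval 12.9 to 21.5%), compared with 81 of 192 from DKO1 (42.2%, interval 35.1 to 49.5%). It had the most code 0 of the 9 windows, 4.50% in HCT116 and 7.05% in DKO1. Separately, 1 bin of its span is absent from the deposited data, and the filter on calls removed none. In cells with code 0 in at most 1% of all bins the difference was 31.5 points. Chromosome 13 as a whole departed by over 15 points from its relation to progress in 15 HCT116 and 25 DKO1 cells, and without them the difference was 25.3 points.

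ATRNL1, a long gene for a membrane protein related to attractin, was advanced most near its start. The ATRNL1 window (chromosome 10, 116640001 to 117920000) had a share of 6.57% for HCT116 and 28.4% for DKO1. The gap was 21.8 points (14.2 to 29.5). The bin of the start site was at 13.8% in HCT116 but at 46.4% in DKO1, while the bin of the end was at 2.46 and 18.4%. In single cells, most of it had been copied by 4 of 319 HCT116 cells (1.25%, interval 0.343 to 3.18%), compared with 32 of 203 from DKO1 (15.8%, interval 11.04 to 21.5%). The DKO1 cells in question were late ones: 17 of 39 cells at 60 to 70% and 6 of 9 at 70 to 80%, against 1 of 80 and 1 of 19 in HCT116.

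TNC, the matrix glycoprotein tenascin C, lies on a slope that falls from an early domain. The TNC window (chromosome 9, 117520001 to 118080000) had a share of 30.9% for HCT116 and 57.5% for DKO1. The gap was 26.6 points (17.5 to 35.6). The bin at the early end differed least, with 60.4 and 72.6%, and the bin at the late end had 9.49 and 43.4%. Most of it had been copied by 80 of 320 HCT116 cells (25%, interval 20.4 to 30.1%), compared with 113 of 206 from DKO1 (54.9%, interval 47.8 to 61.8%). At 70 to 80% progress the lines came close, with 17 of 19 and 10 of 10 cells.

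PAPPA, a metalloproteinase that cleaves binding proteins of insulin-like growth factors, lies in the late DNA beyond TNC. The PAPPA window (chromosome 9, 118720001 to 119360000) had a share of 15.9% for HCT116 and 38.4% for DKO1. The gap was 22.5 points (14.2 to 30.8). In single cells, most of it had been copied by 33 of 318 HCT116 cells (10.4%, interval 7.25 to 14.3%), compared with 73 of 206 from DKO1 (35.4%, interval 28.9 to 42.4%). In HCT116 only 1 of 77 cells had copied it at 50 to 60% progress, then 19 of 80 at 60 to 70% and 10 of 19 at 70 to 80%. In DKO1 these counts were 20 of 51, 29 of 40 and 7 of 10.

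**Figure D2:**
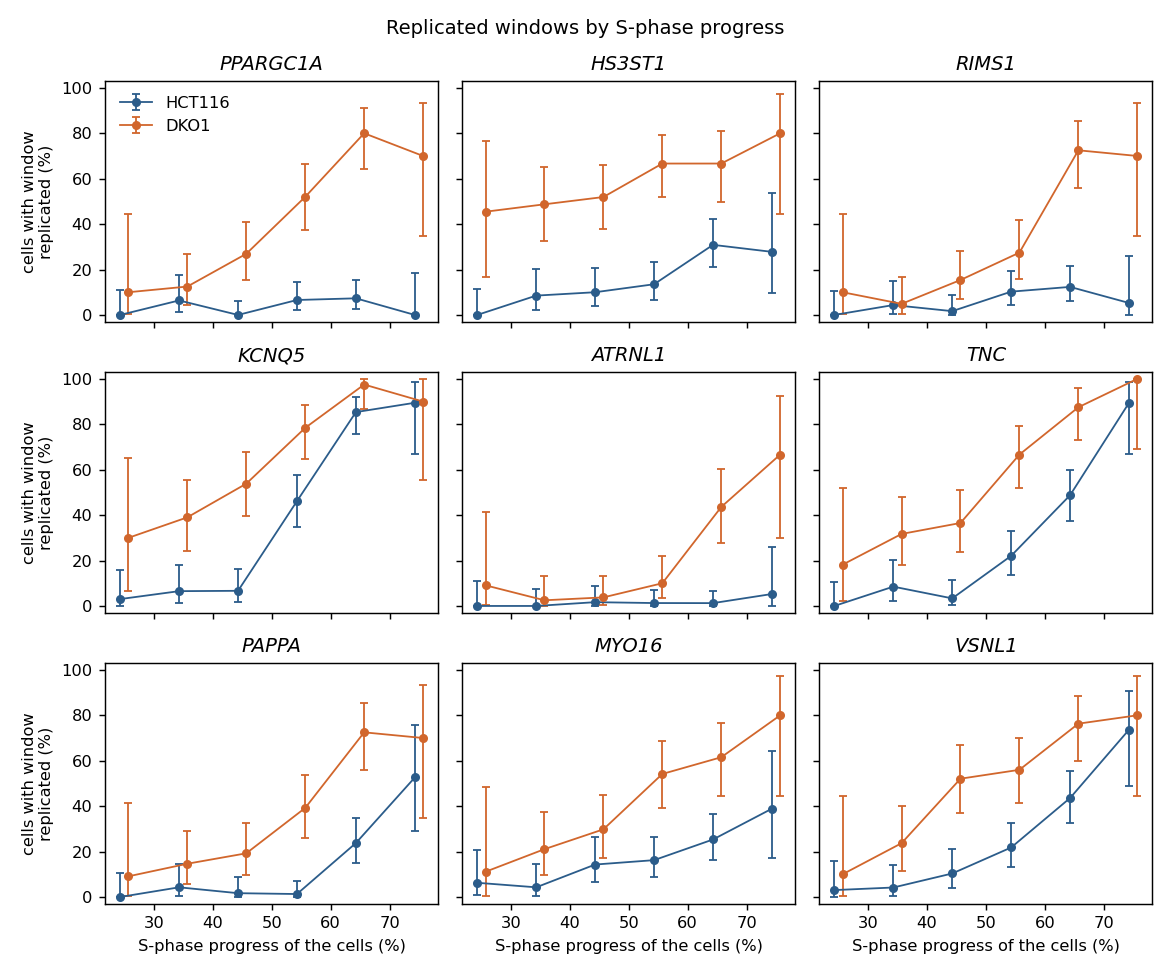
Percent of cells with most of the window replicated (vertical axis) against S-phase progress in strata of 10 points (horizontal axis), for the 9 genes, with HCT116 in blue and DKO1 in orange and bars for exact 95% binomial intervals. DKO1 lies above HCT116, the direction the genes were chosen for, in all 54 pairs of gene and stratum. The intervals are wide at both ends, where DKO1 has 11 and 10 cells.

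Across genes and strata the direction was uniform. The percent of replicated cells was higher in DKO1 in 54 of 54 pairs of a gene and a stratum, and the genes were chosen for this direction. The pairs are not separate, because the same cells recur for each gene, and no such count over other windows is given here. The smallest gaps, for KCNQ5 at 70 to 80% (89.5 and 90%) and RIMS1 at 30 to 40% (4.35 and 4.88%), lie far within the counting error. The genes fell into kinds by how often HCT116 cells had copied them in these strata. PPARGC1A, RIMS1 and ATRNL1 stayed unreplicated in most HCT116 cells up to the last stratum, with at most 12.3% of cells in any stratum. KCNQ5, TNC and VSNL1 were replicated in 73.7% or more of HCT116 cells at 70 to 80%, so the lines differed there mainly in earlier cells. HS3ST1, MYO16 and PAPPA lay between, with at most 30.9, 38.9 and 52.6% of HCT116 cells in any stratum. HS3ST1 and MYO16 were thus also unreplicated in most HCT116 cells of every stratum. This grouping was made after the values were seen.

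**Figure D3:**
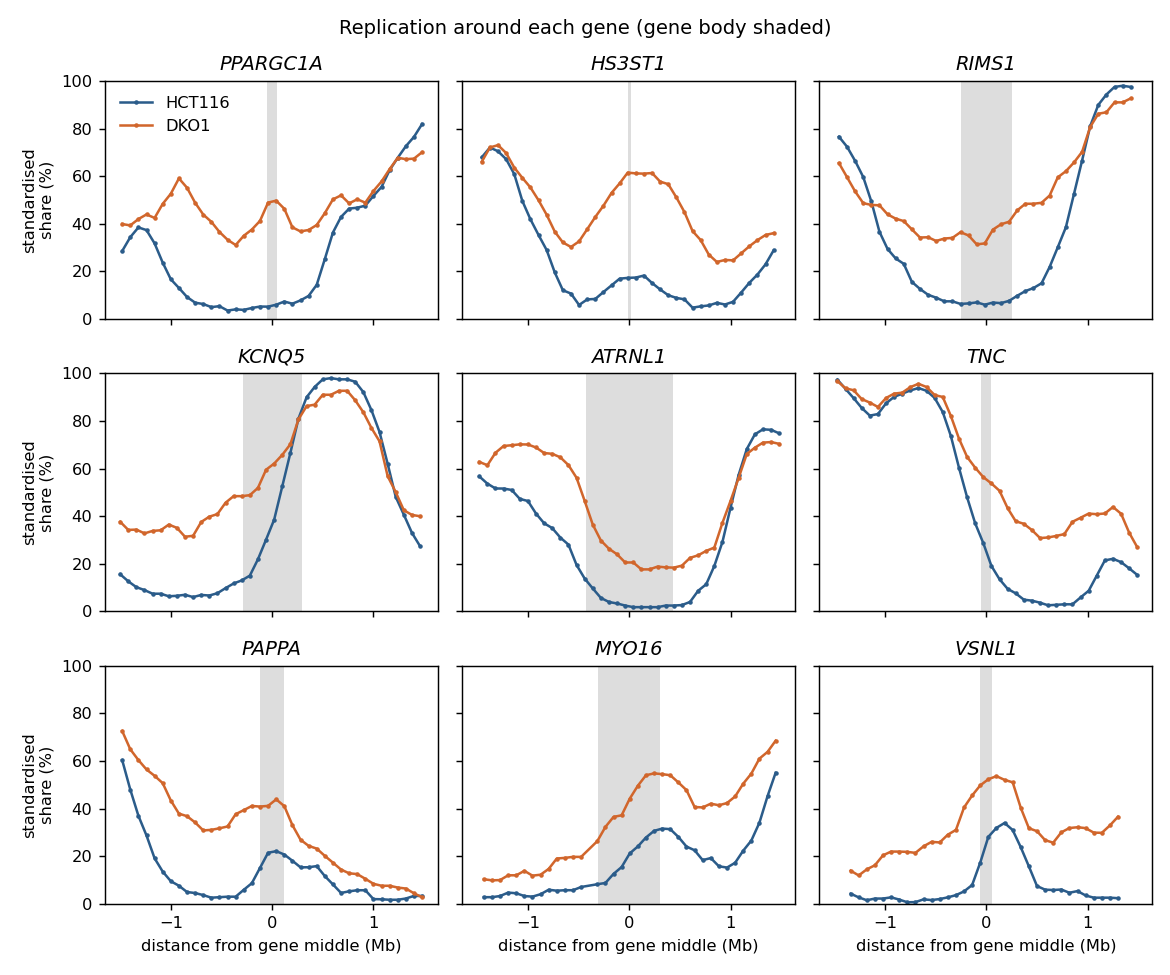
Standardised share of single 80 kb bins (vertical axis) against distance from the middle of each gene (horizontal axis, Mb, in the direction of the chromosome's numbering), with HCT116 in blue, DKO1 in orange and the gene body in grey. HS3ST1, PAPPA, MYO16 and VSNL1 lie on or beside a local rise in both lines, PPARGC1A on one in DKO1 only, and KCNQ5, TNC and the start of ATRNL1 on slopes.

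The surroundings showed where each gene sits. The height of a local rise was taken as the highest share over the bins of the gene minus the higher of the lowest shares within 1 Mb on either side, a measure chosen after the profiles were seen. At PPARGC1A it was -0.425 points for HCT116 but 12.9 points for DKO1, so a rise on the gene stood out in DKO1 only. At HS3ST1 it was 11.4 and 31.3 points. KCNQ5 had 32.9 and 30.6 points by the same measure, with its highest bin at the end of the gene (81.0 and 80.7%). The measure alone therefore does not separate a rise from a slope. At VSNL1 (24.7 and 26.7), MYO16 (16.4 and 14.3) and PAPPA (19.5 and 13.05) a rise was already there in HCT116, and the surrounding late DNA was higher in DKO1 as well: the lowest bin within 1 Mb on the lower-numbered side went from 0.635 to 21.4% at VSNL1, from 5.71 to 19.02% at MYO16 and from 2.57 to 30.8% at PAPPA. On the higher-numbered side it went from 3.49 to 25.7% at VSNL1 and from 15.2 to 40.5% at MYO16, but only from 1.97 to 8.40% at PAPPA.

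The advance was wider than most of the genes. The run of neighbouring used bins at least 15 points higher in DKO1 spanned 1.68 Mb at PPARGC1A, 2 Mb at HS3ST1 and at ATRNL1, 1.76 Mb at MYO16 and 3.28 Mb at VSNL1. RIMS1 and KCNQ5 share a single run of 1.76 Mb (chromosome 6 from 71920001 to 73680000), which ends inside KCNQ5. TNC and PAPPA share a run of 1.6 Mb (chromosome 9 from 117600001 to 119200000), which ends inside the PAPPA window. Of the 86 bins, 76 were at least 15 points higher, against 6.9% of all 27142 used bins. The windows were chosen for this difference, so the count follows from the choice.

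Within single cells, a window was often copied in part. In HCT116 the border between replicated and unreplicated DNA fell inside the KCNQ5 window in 289 of 320 cells (90.3%), while 25 had all of it and 6 none. In DKO1 it fell there in 112 of 205 cells (54.6%), 80 cells (39.0%) had all of it, and 13 (6.34%) had none, against 1.88% of HCT116 cells. For TNC the cells with all of the window went from 21 of 320 (6.56%) to 71 of 206 (34.5%) and those with a part from 56.9 to 42.7%. For HS3ST1, whose window is the shortest, 33 of 312 HCT116 and 95 of 203 DKO1 cells had all of it, and those with a part were 13.5 and 16.7%. The cells with a part were also a larger share in DKO1 at PPARGC1A (13.3 and 31.5%), RIMS1 (17.6 and 42.0%), ATRNL1 (27.3 and 55.2%), PAPPA (21.4 and 30.1%) and MYO16 (37.0 and 51.6%). At VSNL1 they were 30.7 and 29.7%. The counts of cells with all, a part or none of a window were not matched in progress. At PPARGC1A, RIMS1 and ATRNL1 the cells with none were 85.4, 79.6 and 71.8% in HCT116 and 42.9, 40.5 and 36.9% in DKO1. The larger share with a part is therefore not separate from the advance that these genes were chosen for.

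In cells with a single border in the window, its side was mostly the same at the sloped genes. At KCNQ5 the replicated side was the higher-numbered one in 276 of 276 cells of HCT116 and 94 of 94 of DKO1. At TNC it was the lower-numbered one in 180 of 180 and 71 of 78. At PAPPA the side turned: it was the higher-numbered one in 31 of 37 HCT116 cells and the lower-numbered one, towards TNC, in 39 of 45 DKO1 cells. A stretch replicated inside the PPARGC1A window with both ends unreplicated occurred in 9 of 314 HCT116 and 23 of 202 DKO1 cells with all bins called. At the other genes on a local rise such cells were no more frequent in DKO1: 28 of 318 and 16 of 206 at PAPPA, 32 of 304 and 14 of 190 at MYO16, 10 of 312 and 3 of 203 at HS3ST1, and 20 of 315 and 12 of 195 at VSNL1. These counts were not matched in progress.

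**Figure D4:**
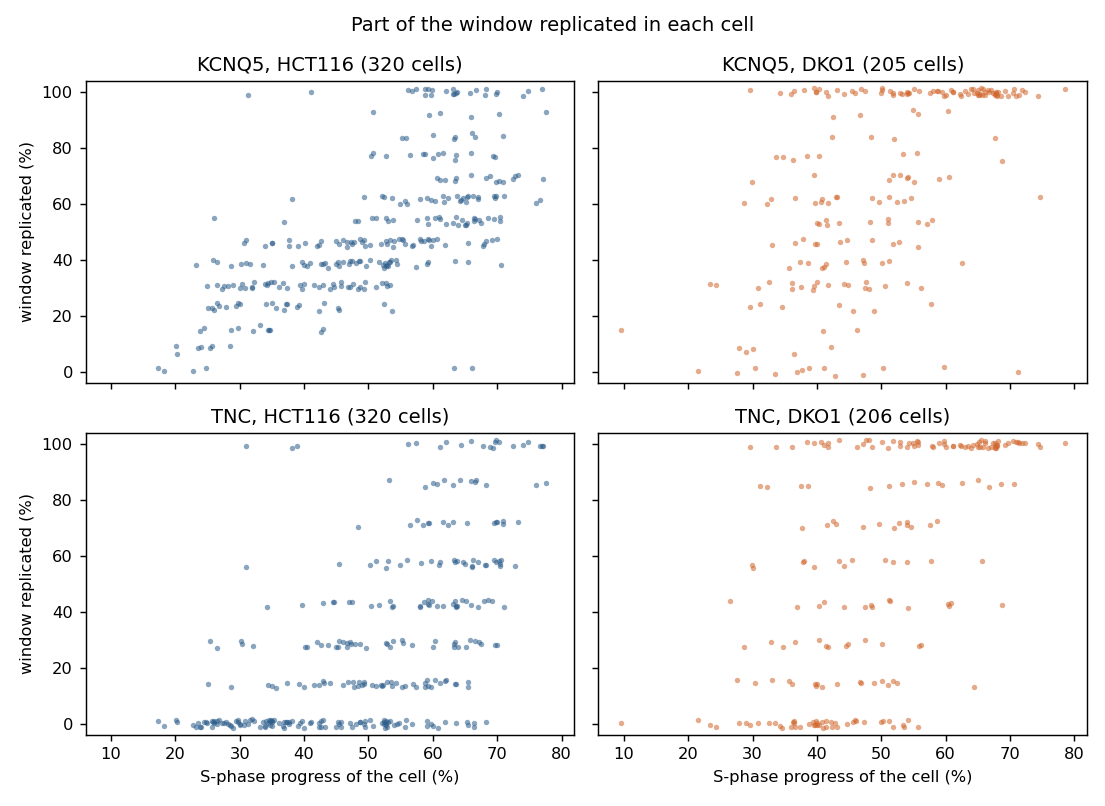
Percent of the called bins of the window that were replicated (vertical axis) against the S-phase progress of the cell (horizontal axis), 1 point per cell with a small vertical offset, for KCNQ5 and TNC in HCT116 (blue) and DKO1 (orange). At KCNQ5 the HCT116 cells climb step by step, with medians of 23.1% at 20 to 30% progress and 69.2% at 70 to 80%, and the DKO1 cells spread over the whole range below 60% progress.

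The copied part of KCNQ5 grew with progress in both lines. In HCT116 the median part was 30.8% at 30 to 40% progress, 38.5% at 40 to 50%, 46.2% at 50 to 60% and 61.5% at 60 to 70%. In DKO1 it was 46.2, 53.8, 69.2 and 100% in the same strata. The quartiles at 40 to 50% were 30.8 and 46.2% in HCT116 and 30.8 and 84.6% in DKO1. At 60 to 70% the spread was the other way round, with quartiles of 53.8 and 76.9% in HCT116 and both at 100% in DKO1.

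DKO1 cells had copied more of the 9 genes at every stage, in the direction the genes were chosen for. The counts per cell are therefore a description, and none over other windows is given here. Among cells in which all 9 windows were called, the median number replicated was 1 in 284 HCT116 cells and 4 in 170 DKO1 cells. At 40 to 50% progress it was 0 (range 0 to 3, 53 cells) and 3 (range 0 to 6, 40 cells), and at 60 to 70% it was 2.5 (range 1 to 7, 70 cells) and 7 (range 3 to 9, 36 cells). No window was replicated in 36 of the 53 HCT116 cells at 40 to 50% and in 1 of the 40 DKO1 cells. Over all progress, 109 HCT116 and 9 DKO1 cells had copied none of the windows, and 0 and 2 cells had copied all 9.

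**Figure D5:**
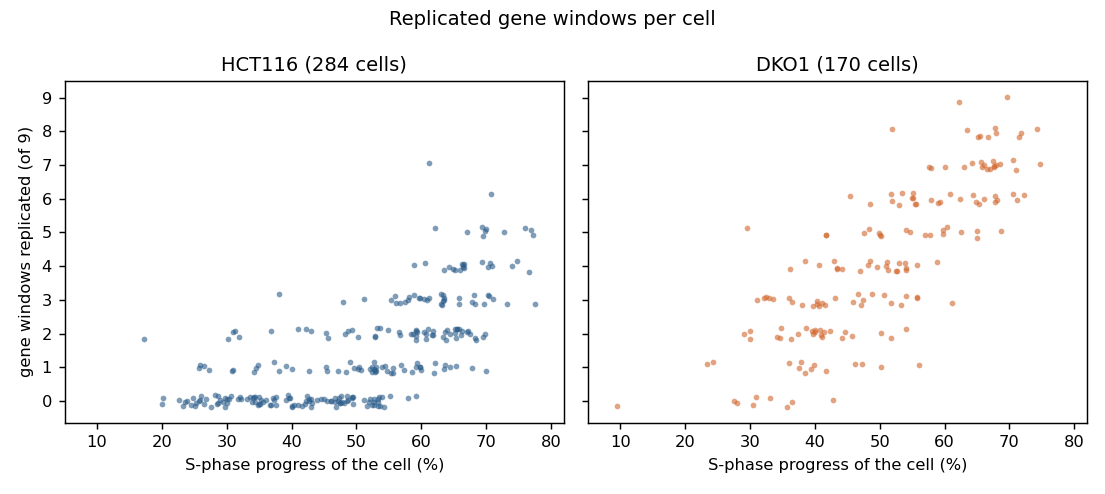
Number of the 9 gene windows replicated in a cell (vertical axis, points offset slightly) against its S-phase progress (horizontal axis), for the 284 HCT116 and 170 DKO1 cells in which all 9 windows were called. HCT116 cells stay mostly at 0 or 1 below 50% progress, while DKO1 cells at 50 to 60% have a median of 5. The genes were chosen for their advance in DKO1.

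Which genes a cell had copied was only loosely shared. At 40 to 60% progress, the correlation of the state of 2 windows across cells had a median of -0.018 over the 36 pairs in HCT116 (138 cells) and 0.069 in DKO1 (104 cells). The highest value in both lines was that of RIMS1 and KCNQ5, 0.35 and 0.32, whose windows share 3 bins. Cells of a stratum still differ in progress, and the values are a description only. RIMS1 was seldom copied without KCNQ5, in 2 of 22 HCT116 and 3 of 61 DKO1 cells. PPARGC1A and HS3ST1, far apart on chromosome 4, were both copied in 3 of 311 HCT116 cells (0.965%), compared with 60 of 200 from DKO1 (30%). TNC and PAPPA were both copied in 22 of 318 (6.92%) and 58 of 206 cells (28.2%). These joint counts were not matched in progress, and each of these genes alone was also copied in more DKO1 cells. At 40 to 60% progress the correlation was 0.048 in HCT116 and 0.118 in DKO1 for PPARGC1A and HS3ST1. For TNC and PAPPA it was -0.049 and 0.238.

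Code 0 and cells with an outlying chromosome were also counted for the rest of the set. Over the other chromosomes of the set, 1 to 9 HCT116 cells and 2 to 13 DKO1 cells had an outlying chromosome. Without such cells the 9 differences ran from 19.5 to 43.3 points. Code 0 took 0.799 to 3.11% of the codes in HCT116 and 0.483 to 5.59% in DKO1 in the windows other than that of MYO16. In cells with little code 0, of which 187 HCT116 and 60 DKO1 cells in 4 strata could be used, the differences ran from 15.5 to 39.4 points.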

How the data were processed

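The data are single-cell replication states of S-phase cells of HCT116 and DKO1, 1 library each. Libraries of G1 cells are part of the series and were not used here. For each cell and 80 kb bin the authors deposited a code of 0, 1 or 2, and by the table's name these are calls of a hidden Markov model. Both hg19 and GRCh37 appear as builds in the submitters' processing notes, next to the tools bedtools 2.26.0, SAMtools 1.10 and Cell Ranger. No source used here gives read depth, filters or the software of the model, and the depth of a call is therefore unknown. A model that smooths along the chromosome makes neighbouring bins alike.

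Code 2 was read as replicated, because across 21 chromosomes its share followed gene density (Spearman's rho 0.83 for HCT116, 0.88 for DKO1). Bins called in at least 90% of cells of both lines were used (27142). All strata of 10 points that held 5 or more cells from both lines got the same weight, which used 320 HCT116 and 206 DKO1 cells. A window counted as replicated in a cell when over 50% of its called bins were. The interval of a difference treats each share as a plain proportion of cells and joins the exact intervals of both in quadrature. It leaves out the equal weights of the strata, so it is an approximate counting error only. No doublet caller was run. Python 3.11.15, numpy 2.4.6, pandas 2.3.3 and scipy 1.17.1 were used, and the functions were tested on simulated data.

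The 9 genes and their windows were chosen with earlier results of these data known, as were the alternatives. By the rule for named genes, all 9 and their nearest protein-coding neighbours are named. Gene spans were those of the given hg19 list. Other genes were not placed in bins, since no annotation of that build was used.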

Additional observations from a re-analysis of the deposited data

How the results depend on the processing

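No paired analysis was possible because each line is 1 library and the labels give no replicates to leave out. All 9 genes stayed at least 15 points higher in DKO1 under 9 of the 11 alternatives to the processing that kept this limit, namely windows of the gene alone or with 500 kb on each side, code 0 as unreplicated, no matching of progress, 5-point strata, strata from 30 to 70%, no filter on bins, only cells with little code 0, and no cells with an outlying chromosome. With progress taken without the gene's own chromosome 8 of 9 passed. When a bin had to be called in 99% of cells, only RIMS1, KCNQ5 and TNC had bins left, and 3 of 3 passed, at a median of 29.99 points. The median difference ran from 22.9 points (500 kb flanks) to 29.99 points. At limits of 10 and 20 points 9 and 8 genes passed. Of 102 values of single genes under 12 alternatives, 98 moved by less than their counting interval and 4 rose by more: PPARGC1A over its gene alone (43.7 points), KCNQ5 under the 99% limit on bins (29.99), and MYO16 (31.5) and VSNL1 (39.4) in cells with little code 0. The cause was not tested, and the KCNQ5 value is for the bins left under that limit, not for the whole window. Besides the 11 alternatives, the 102 values include the differences above the mean of bins of the same HCT116 share, another quantity. The alternatives reuse the same cells or a part of them, so staying within the interval is a lax mark of stability. ATRNL1 at 15.5 points with little code 0 and KCNQ5 at 13.98 without its own chromosome in progress counted as unmoved. Counting cells with all of the window in place of most of it changed the median gap between the lines from 25.3 to 24.3 points of cells. Single genes changed more than these medians, which fall on different genes. The gap narrowed at PPARGC1A, HS3ST1, RIMS1, ATRNL1, TNC, PAPPA and MYO16, and widened at KCNQ5 and VSNL1. At MYO16 the cells went from 16.9% in HCT116 and 42.2% in DKO1 to 3.57 and 10.4%. At KCNQ5 they went from 40.9 and 65.9% to 7.81 and 39.0%. The first and last strata rest on 11 and 10 DKO1 cells.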
